A study of Mus musculus with 8 samples.

Results

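The genes described here are nonagouti, whose symbol is a, and 9 further genes that set coat colour in the mouse or serve as markers in the engineering of mouse chromosomes: Mc1r, Atrn, Mgrn1, Tyr, Hprt, Mitf, Dct, Pmel and Kit. The members were chosen by name, and nonagouti headed the list because its level differed between the genotypes in these libraries. Of the 10 genes, 8 had a row in the count table of 19493 genes, and Mc1r and Dct had none. The RNAseq libraries came from MEFs (mouse embryonic fibroblasts), a mixed culture of mesenchymal cells, of E14.5 embryos: 4 wild-type (WT) libraries and 4 libraries from embryos with the duplication Dp(16Lipi-Zbtb21)1TybEmcf, called Dp1Tyb, which has 3 copies of the genes from Lipi to Zbtb21 on chromosome 16. All 8 libraries shared the strain label C57BL/6J.129P2 and had ERCC spike-in RNA added. Dp1Tyb is a single engineered allele, and none of the members lies in the duplicated interval. The sources used here do not state which markers the engineered allele carries, and a count per gene does not tell from which copy or promoter a read came.

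The agouti protein is a secreted ligand that dermal papilla cells of the hair follicle release. It antagonises the melanocortin receptor Mc1r on melanocytes, which then make yellow pheomelanin in place of black eumelanin. Attractin (Atrn) is an accessory receptor for agouti and Mgrn1 is an E3 ubiquitin ligase, and loss of either darkens the coat. Mitf is the transcription factor that directs melanocyte genes, Kit is the receptor tyrosine kinase that melanoblasts need to survive and migrate, Tyr is the rate-limiting enzyme of melanin synthesis, Dct acts later in the same synthesis, and Pmel forms the fibrils on which melanin is laid down. Hprt is a purine salvage enzyme, and pieces of an Hprt minigene that join upon recombination are widely used to select for chromosome rearrangements, with tyrosinase and agouti transgenes used as coat-colour tags. C57BL/6J mice are nonagouti and black.

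The sequences in front of the genes are given first, because the members fall into separate kinds of promoter. RefSeq promoter windows on build GRCm38.p6, running from 250 bases before to 50 bases after a start site, matched 9 of the 10 members, all but Pmel. The letters TCATGTG, a form of the E-box that Mitf binds, were searched on both strands, and 3 members held them, Tyr, Dct and Mc1r, against 3.77% of all 32851 promoter windows of that length. These stretches are shown 5′ to 3′ on the strand of the gene, with TCATGTG in capitals:
Tyr (chr7:87493513-87493554, minus strand, motif starting 22 bases before the start site): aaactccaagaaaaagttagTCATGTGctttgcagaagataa
Dct (chr14:118052371-118052417, minus strand, motif starting 151 bases before the start site): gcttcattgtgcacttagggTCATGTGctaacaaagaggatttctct
Mc1r (chr8:123407010-123407056, plus strand, motif starting 52 bases before the start site): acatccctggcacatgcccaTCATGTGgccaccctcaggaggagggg
The Dct window held 2 matches, of which the second, on the other strand, is not shown. A match describes letters in a window and says nothing on whether a factor binds there. Of these 3 genes, Mc1r and Dct had no row in the count table, and Tyr had the lowest mean level per length of exon over all 8 libraries among the members with a row.

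The 250 bases upstream of nonagouti and of Hprt are shown because, per length of exon, the latter was the most abundant member in these cells and the former the least but Tyr in WT. CG dinucleotides are in capitals:
a (chr2:155013320-155013569, plus strand): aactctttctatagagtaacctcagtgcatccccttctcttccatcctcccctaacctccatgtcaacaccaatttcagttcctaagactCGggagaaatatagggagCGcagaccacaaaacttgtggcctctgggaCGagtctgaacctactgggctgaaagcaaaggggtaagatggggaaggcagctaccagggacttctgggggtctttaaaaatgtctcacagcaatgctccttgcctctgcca
Hprt (chrX:52987828-52988077, plus strand): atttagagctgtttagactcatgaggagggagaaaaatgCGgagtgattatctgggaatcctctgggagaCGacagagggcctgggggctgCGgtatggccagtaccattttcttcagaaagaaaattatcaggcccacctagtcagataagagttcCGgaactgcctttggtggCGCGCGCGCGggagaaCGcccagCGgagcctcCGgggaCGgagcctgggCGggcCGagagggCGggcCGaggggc
The nonagouti stretch held 3 CG dinucleotides and that of Hprt held 17. This start site of nonagouti lies inside the gene as the Ensembl identifiers place it, not at its first base, and which start site the reads came from is not known from counts per gene. Over the whole windows of 300 bases, Tyr held no CG, nonagouti 3, Mc1r 4, Dct 5, Mgrn1 13, Hprt 22 and Atrn 34, against a median of 7 over all promoters. Atrn, Mgrn1 and Hprt, the members with the highest levels per length of exon in the MEFs, thus had windows above that median, but so did the lowly expressed Kit and 2 of the 3 windows of Mitf, with 22 and 8. This is a description over 9 genes and was not tested.

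The libraries held 17698900 to 26471758 counts in endogenous genes and spike-ins. Levels are given as CPM (counts scaled to a common library size) on a relative scale, which sets the endogenous genes of all libraries equal by the trimmed mean of M-values, and differences were fitted with edgeR on that scale and on a spike-in scale set by the ERCC transcripts, which is the main one. The spike-in scale placed the median gene 0.11 log2 units higher in Dp1Tyb than in WT, against 0.01 on the relative scale, and each difference should be read against that shift. The cultures carried the fibroblast signature, with all 12 fibroblast markers present, Col1a1 at 825 and Vim at 771 RPKM (the relative CPM per kilobase of exon), and summed marker levels of 17592 to 29143 CPM in WT and 20169 to 28496 CPM in Dp1Tyb. Nothing in the labels says that the libraries of a group came from separate cultures beyond their separate numbers, so p-values measure the spread between these libraries. In bulk cultures, fewer cells of a type and less RNA per cell cannot be told apart.

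Nonagouti (ENSMUSG00000027596, GRCm38 chr2:154791402-155051012, plus strand) was almost silent in WT MEFs and well above that in Dp1Tyb MEFs. The 4 WT libraries held 4, 4, 8 and 4 counts, and the 4 Dp1Tyb libraries held 164, 119, 145 and 147. Every Dp1Tyb library lay above every WT library, with a gap of 111 counts between the highest WT and the lowest Dp1Tyb library. Over all genes tested, 1.64% lay apart in this direction on the relative scale and 0.285% on the spike-in scale. On the relative scale the WT levels were 0.179, 0.170, 0.379 and 0.194 CPM and the Dp1Tyb levels 6.34, 6.87, 7.14 and 8.46 CPM, with means of 0.230 ± 0.0996 and 7.20 ± 0.901 CPM (SD, n = 4). The lowest Dp1Tyb library was 16.7 times the highest WT library on this scale and 17.5 times on the spike-in scale. The ratio of the summed counts, corrected for library size, was 31.2, with a 95% interval of 19.98 to 51.4 that covers counting error only (exact binomial). The fitted log2 fold change was 5.13 (SE 0.53) on the spike-in scale and 4.94 (SE 0.28) on the relative scale. Because nonagouti was chosen for this difference, the values stand as a description and no p-value is given.

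The precision of the nonagouti values was limited by the WT side. The 20 WT counts allow a true total of 12.2 to 30.9 (95% exact Poisson interval), whereas the 575 Dp1Tyb counts allow 529 to 624. Among the Dp1Tyb libraries the relative level varied with a coefficient of variation of 12.5%, against 8.34% from counting error alone. On the spike-in scale they spread more widely, from 4.69 to 11.0 CPM, with a coefficient of variation of 33.8%, and all 4 still lay above the WT libraries, the highest of which was at 0.268 CPM. Per length of exon, nonagouti stood above 11.1% of the 19318 genes with a known exon length in WT and above 67.3% of them in Dp1Tyb.

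**Figure D1:**
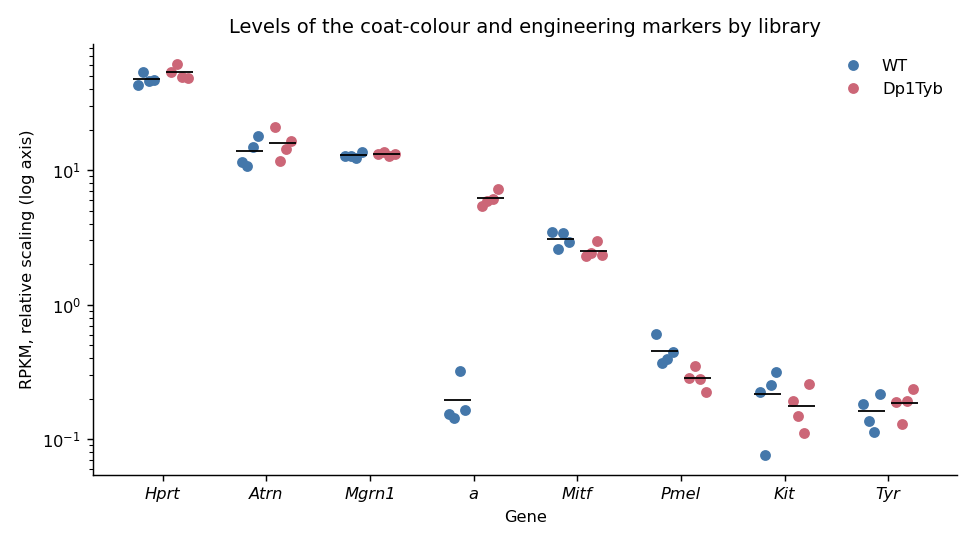
Level of each of the 8 members with a row in each of the 8 libraries, in RPKM on the relative scale (log axis). Points are libraries, WT in blue and Dp1Tyb in red, and the black lines are group means. Nonagouti (a) moves from a mean of 0.197 RPKM in WT to 6.16 RPKM in Dp1Tyb, and the groups of each of the other genes but Pmel overlap.

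The order of the members by level per length of exon differed between the genotypes in the place of nonagouti, and Kit and Tyr, which overlapped in both, exchanged places. In WT the means ran from Hprt at 47.4 RPKM over Atrn at 13.7, Mgrn1 at 12.9, Mitf at 3.08, Pmel at 0.453 and Kit at 0.218 to nonagouti at 0.197 and Tyr at 0.163 RPKM. Neighbours in that order overlapped between libraries for Atrn and Mgrn1, for Kit and nonagouti, and for nonagouti and Tyr. In Dp1Tyb nonagouti was the 4th most abundant member at 6.16 ± 0.771 RPKM (SD, n = 4), below Mgrn1 and above Mitf at 2.51 RPKM, with no overlap on either side.

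The accessory proteins of agouti signalling were well transcribed in both genotypes and no difference was detected. Atrn (ENSMUSG00000027312, chr2:130906495-131030333, plus strand) lay at 150, 141, 197 and 237 CPM in WT and at 274, 153, 191 and 217 CPM in Dp1Tyb. The groups overlapped, with means of 181 ± 44.7 and 209 ± 51.0 CPM, and Dp1Tyb replicate 1 was the highest library. The log2 fold change was 0.35 (SE 0.32) on the spike-in scale, with an adjusted p of 1.00 in edgeR's quasi-likelihood test with Benjamini-Hochberg adjustment over all genes tested. Mgrn1 (ENSMUSG00000022517, chr16:4886249-4938296, plus strand) is on the duplicated chromosome but outside the duplicated interval. Its levels were 64.9, 65.0, 62.4 and 69.8 CPM in WT and 67.0, 68.9, 64.5 and 67.5 CPM in Dp1Tyb. The groups overlapped almost completely, with a relative log2 fold change of 0.03 (SE 0.08) against 0.13 (SE 0.32) on the spike-in scale. The edgeR quasi-likelihood test gave Mgrn1 an adjusted p of 1.00 on both scales.

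The melanocyte genes were close to the detection limit, and none passed the test. Tyr (ENSMUSG00000004651, chr7:87424771-87493512, minus strand) had 29, 23, 17 and 32 counts in WT and 35, 16, 28 and 29 in Dp1Tyb. The groups overlapped, at 1.16 ± 0.333 and 1.33 ± 0.307 CPM, and the log2 fold change was 0.30 (SE 0.50) on the spike-in scale and 0.20 (SE 0.29) on the relative scale. Pmel (ENSMUSG00000025359, chr10:128704195-128720238, plus strand) had 31, 20, 19 and 21 counts in WT and 17, 14, 13 and 9 in Dp1Tyb. On the relative scale its levels were 1.39, 0.848, 0.900 and 1.02 CPM in WT and 0.657, 0.808, 0.640 and 0.518 CPM in Dp1Tyb, so that each Dp1Tyb library lay below each WT library, as did 1.52% of all genes tested. On the spike-in scale the groups of Pmel overlapped. Its log2 fold change was -0.63 (SE 0.53) on the spike-in scale and -0.66 (SE 0.28) on the relative scale, with unadjusted p of 0.234 and 0.0382 in edgeR's quasi-likelihood test and an adjusted p of 1.00 on both. Pmel overlaps Dgka and Cdk2 on the other strand, which are far more abundant and had relative log2 fold changes of 0.03 (SE 0.21) and 0.11 (SE 0.20).

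Mitf (ENSMUSG00000035158, chr6:97807052-98021349, plus strand) is also used outside melanocytes, and it had 253 to 479 counts a library. Its levels were 21.4, 16.0, 21.1 and 18.0 CPM in WT and 14.2, 15.0, 18.4 and 14.6 CPM in Dp1Tyb. The groups overlapped through Dp1Tyb replicate 3, and the log2 fold change was -0.20 (SE 0.34) on the spike-in scale and -0.30 (SE 0.14) on the relative scale, with an adjusted p of 1.00 in edgeR's quasi-likelihood test on both. Kit (ENSMUSG00000005672, chr5:75574916-75656722, plus strand) varied more within WT than between the genotypes. It had 45, 16, 48 and 58 counts in WT and 44, 23, 20 and 40 in Dp1Tyb, and WT replicate 2 was the lowest library. The log2 fold change of Kit was -0.18 (SE 0.47) on the spike-in scale and -0.30 (SE 0.42) on the relative scale, and its sign turned when WT replicate 4 (0.18), Dp1Tyb replicate 2 (0.06) or Dp1Tyb replicate 3 (0.02) was left out on the spike-in scale. Its adjusted p in edgeR's quasi-likelihood test was 1.00.

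Hprt (ENSMUSG00000025630, chrX:52988137-53021659, plus strand) was the most abundant member per length of exon, though not in CPM. Its levels were 55.6, 69.1, 59.6 and 60.0 CPM in WT and 68.7, 79.7, 63.2 and 62.7 CPM in Dp1Tyb. The groups overlapped, with Dp1Tyb replicate 2 the highest, and the means were 61.1 ± 5.72 and 68.6 ± 7.89 CPM. The log2 fold change was 0.26 (SE 0.32) on the spike-in scale and 0.17 (SE 0.11) on the relative scale, with an adjusted p of 1.00 in edgeR's quasi-likelihood test on both. Xist, the RNA that coats an inactive X chromosome, had 36188 counts in WT replicate 2 and 38867 in Dp1Tyb replicate 1, against 9 to 60 in the other 6 libraries. Hprt was at 69.1 and 68.7 CPM in that pair of libraries, below Dp1Tyb replicate 2 at 79.7 CPM and above the other 5 libraries at 55.6 to 63.2 CPM. The part of this in the values of Hprt was not tested.

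Among the 7 members other than nonagouti, 0 were called at an adjusted p under 0.05 on the spike-in scale, where edgeR called 0.0121% of the 16470 genes tested, and 0 on the relative scale, where it called 0.0182%. At an unadjusted p under 0.05 the counts were 0 of 7 on the spike-in scale, against 1.17% of all genes, and 1 of 7 on the relative scale, against 4.27%. DESeq2 also called 0 of the 7, with ERCC size factors and with its own. The standard errors of the 7 log2 fold changes were 0.32 to 0.53 on the spike-in scale and 0.08 to 0.42 on the relative scale. All 8 members with a row passed the filter on low counts, nonagouti only through its Dp1Tyb libraries.

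**Figure D2:**
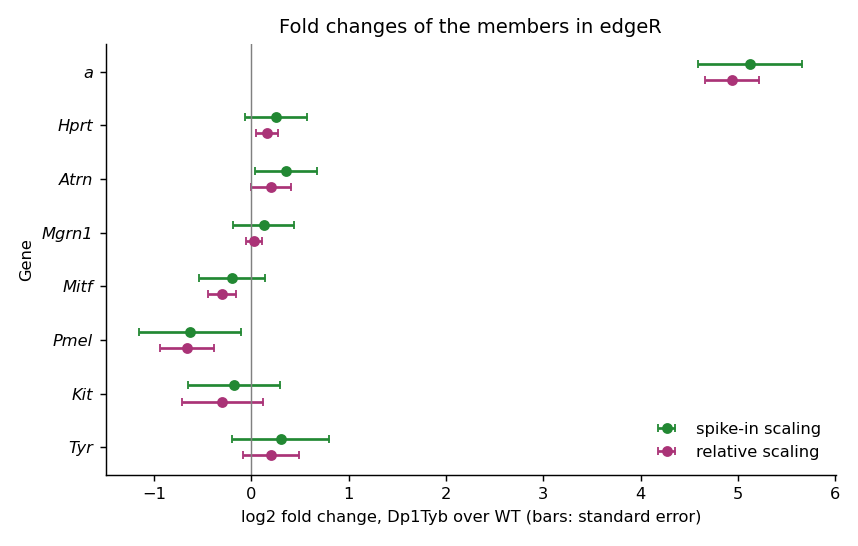
Fitted log2 fold change of each member, Dp1Tyb over WT, on the spike-in scale (green) and the relative scale (purple), with bars of 1 standard error. Nonagouti stands at 5.13 and 4.94, and the other 7 genes lie between -0.66 and 0.35.

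The genes beside and across nonagouti on chromosome 2 were examined next, for their own fold changes. Since a count per gene does not tell from which copy a read came, they do not show where the nonagouti reads arose. Within 1 Mb of either end of nonagouti, 44 other genes had a row and 35 of them were tested. Of these, edgeR called 0 on either scale, and at an unadjusted p under 0.05 there were 0 on the spike-in scale and 1 on the relative scale. Over all genes tested, 0.0121% and 0.0182% were called and 1.17% and 4.27% had an unadjusted p under 0.05 on these scales, so the count of neighbours is near that of genes at large. The 1 gene was Efcab8, at the far edge of the window, with a relative log2 fold change of -0.94 (SE 0.29, unadjusted p = 0.00827 and adjusted p = 1.00 in edgeR). The median relative log2 fold change of the 35 neighbours was 0.03 and the range was -0.94 to 0.28, and 21 of the 35 were smaller than their own standard error.

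The genes that share sequence with the long nonagouti locus did not pass the test. Raly, an RNA-binding protein gene on the same strand whose start lies next to that of nonagouti, had 1737 to 2852 counts a library and a relative log2 fold change of 0.12 (SE 0.15). Eif2s2, which encodes a subunit of the translation initiation factor eIF2, lies on the other strand inside the locus and was at 0.22 (SE 0.22). Gm14226, also on the same strand, was at -0.27 (SE 0.41) with 36 to 158 counts. The nearest tested genes outside the locus, 1 on each side, were Chmp4b, a gene of membrane scission, at 0.10 (SE 0.10), and Ahcy. The latter, which encodes S-adenosylhomocysteine hydrolase and lies 8298 bases beyond the end of nonagouti, was at 0.06 (SE 0.14). Whether the counting used strand is not given in the sources used here, so reads in stretches shared by opposite strands cannot be assigned with certainty.

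**Figure D3:**
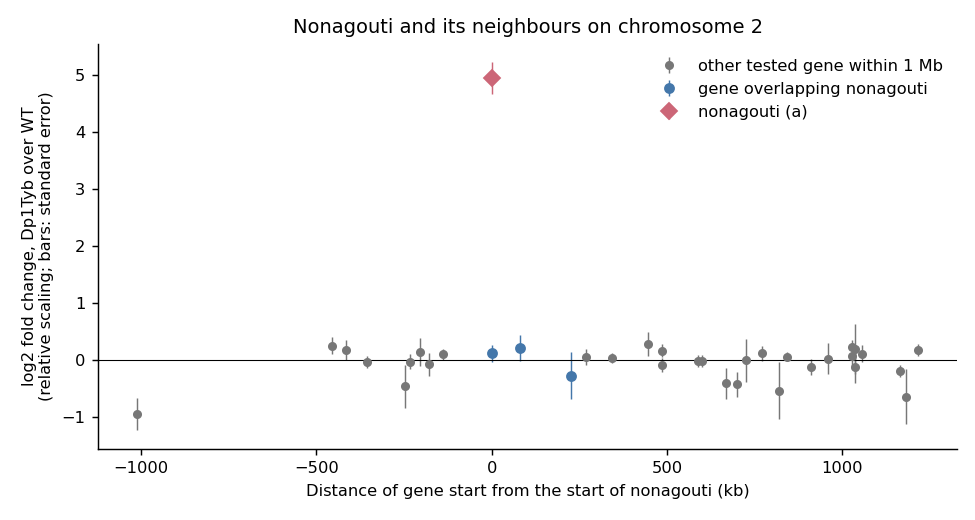
Relative log2 fold change, Dp1Tyb over WT, of nonagouti (red diamond), the 3 tested genes that overlap it (blue) and the other tested genes within 1 Mb (grey), by distance of their start from the start of nonagouti in kilobases. Bars are 1 standard error. The neighbours lie between -0.94 and 0.28, and nonagouti at 4.94.

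The rest of the melanocortin pathway showed 0 of 17 tested genes called on either scale, with nonagouti left aside. Of all genes tested, edgeR called 0.0121% on the spike-in scale and 0.0182% on the relative scale. At these rates 0 was the likely count for this list and for each list below. Agrp, the hypothalamic relative of agouti that blocks brain melanocortin receptors, had 5, 5, 8 and 2 counts in WT and 4, 4, 5 and 7 in Dp1Tyb, so the groups overlapped and the gene was too low to test. Pomc, the precursor of the melanocortin agonists, had 2 to 10 counts a library. Mrap of the same list lies between Sod1 and Wrb on chromosome 16, in the duplicated interval. It had 14, 2, 9 and 7 counts in WT and 3, 1, 12 and 13 in Dp1Tyb. The groups overlapped, and Mrap was too low to test. Among receptors, Mc1r and Mc3r had no row, Mc4r had 5 to 14 counts and Mc5r 1 to 19, and Mc2r had 19, 8, 9 and 3 counts in WT and 3, 0, 1 and 8 in Dp1Tyb. The groups overlapped for each of these receptors, and all were too low to test. Among the protein kinase A subunits that act below these receptors, Prkar1a was the most abundant, at 409 ± 40.9 CPM in WT and 419 ± 14.7 CPM in Dp1Tyb (relative log2 fold change 0.03, SE 0.10), and Prkaca was at 0.01 (SE 0.11), whereas Prkar2a varied within WT from 84.1 to 188 CPM and lay between 105 and 178 CPM in Dp1Tyb. The prohormone convertase gene Pcsk1, which had the smallest unadjusted p of the list on the spike-in scale, ahead of Atrn, was at -0.68 (SE 0.53) on that scale and -0.74 (SE 0.55) on the relative scale, with 7 to 41 counts. Pcsk2 of the same list, also too low to test, had 8 to 13 counts in WT and 3 to 5 in Dp1Tyb. On the relative scale each Dp1Tyb library of Pcsk2 lay below each WT library, as did 1.52% of all genes tested, a set without Pcsk2. On the spike-in scale its groups overlapped. The median relative log2 fold change of the 17 tested genes was -0.05, against 0.01 for all genes, with 7 positive and 10 negative. On the spike-in scale 12 were positive and 5 negative, with a median of 0.06 against 0.11.

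Of the 16 tested pigment cell genes, 0 were called, 3 had a positive and 13 a negative relative log2 fold change, and the median was -0.24 against 0.01 for all genes. On the spike-in scale the split was 6 positive and 10 negative, with a median of -0.10 against 0.11. Tyrp1, Dct, Mlana, Slc45a2, Oca2 and Gpr143, which together define the pigmented melanocyte, had no row. Sox10, a transcription factor of neural crest derivatives, had 308, 92, 184 and 197 counts in WT and 202, 71, 82 and 114 in Dp1Tyb. The groups overlapped, and its relative log2 fold change was -0.67 (SE 0.36, adjusted p = 1.00 in edgeR). Gpnmb, a lysosomal and melanosomal membrane protein gene that is also used in other cells, was the most abundant of the list by RPKM at -0.27 (SE 0.30), followed by the motor protein gene Myo5a at -0.04 (SE 0.14).

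Kit and endothelin signalling, which melanoblasts need, had 0 of 15 genes called, with 9 positive and 6 negative relative log2 fold changes and a median of 0.03, and with 11 positive and 4 negative and a median of 0.14 on the spike-in scale. Edn3 of this list had no row. Edn1, which encodes endothelin 1, had 92, 100, 48 and 76 counts in WT and 246, 85, 94 and 78 in Dp1Tyb. Its log2 fold change was 0.82 (SE 0.41) on the spike-in scale and 0.72 (SE 0.30) on the relative scale. Dp1Tyb replicate 1 was at 9.51 CPM on the relative scale, against 4.49 to 4.90 CPM in the other Dp1Tyb libraries. WT lay at 2.27 to 4.24 CPM, so the fold change of Edn1 leans on Dp1Tyb replicate 1. Map2k1, the MAP kinase kinase MEK1, was at 82.8 ± 5.65 CPM in WT and 105 ± 13.8 CPM in Dp1Tyb, with a relative log2 fold change of 0.34 (SE 0.11). On the relative scale each Dp1Tyb library lay above each WT library for these 2 genes, as it did for 1.64% of all genes tested, and on the spike-in scale the groups overlapped. The smallest unadjusted p in edgeR was 0.0448 for Edn1 on the spike-in scale and 0.0129 for Map2k1 on the relative scale, and the adjusted p was 1.00 in each case. Kitl, the ligand of Kit, was at -0.57 (SE 0.29) and the adaptor gene Shc1 at 0.04 (SE 0.15).

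Genes of melanosome biogenesis, most of which also serve lysosomes in other cells, had 0 of 20 called and a median of 0.01, with 11 positive and 9 negative relative log2 fold changes. On the spike-in scale, where the median gene was itself at 0.11, the split was 19 positive and 1 negative with a median of 0.14. The adaptor complex genes Ap3b1 and Ap3d1 were the most abundant, both at 0.02 (SE 0.10), and the BLOC-1 subunit genes Bloc1s2 and Bloc1s5 were at 0.20 (SE 0.17) and 0.19 (SE 0.19). The purine salvage list around Hprt had 0 of 15 called, 12 positive and 3 negative, with a median of 0.13. Aprt, the adenine counterpart of Hprt, was at 0.14 (SE 0.11), the nucleotidase gene Nt5e at 0.22 (SE 0.25), and Xdh, which oxidises purines, at -0.45 (SE 0.23). The family of Mitf had 0 of 4 called, with 1 positive relative log2 fold change and 2 positive ones on the spike-in scale. On the relative scale Tfe3 was at 0.01 (SE 0.14), Tfeb at -0.02 (SE 0.23) and Tfec at -0.14 (SE 0.24).

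**Figure D4:**
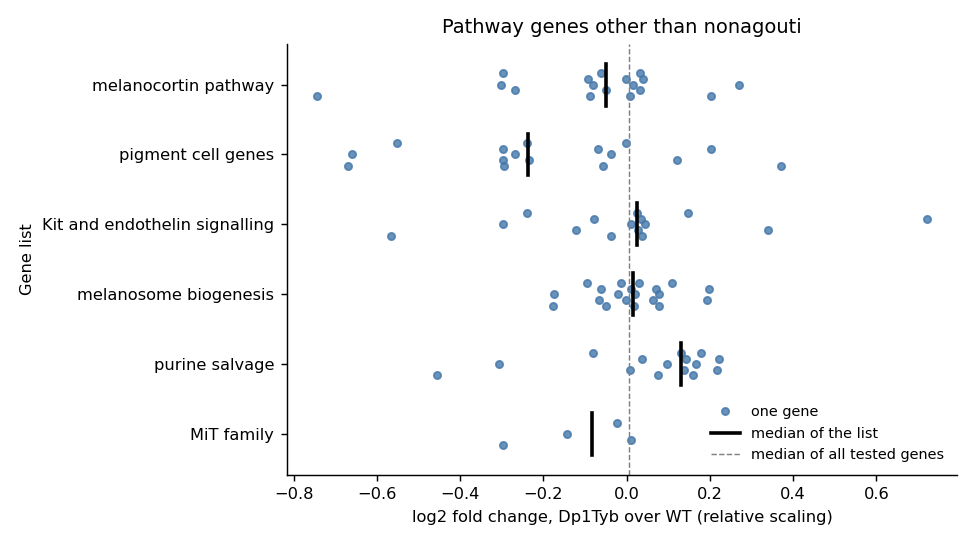
Relative log2 fold change, Dp1Tyb over WT, of the tested genes of each list with nonagouti left out. Points are genes, black bars list medians and the dashed line the median of all tested genes. The list medians lie between -0.24 for pigment cell genes and 0.13 for purine salvage.

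Markers of the cell types that could carry these genes in a trunk culture were compared between the groups. For melanocytes 4 of 10 markers had a row, Tyr, Pmel, Sox10 and Slc24a5, with a summed level of 7.08 to 18.1 CPM in WT and 6.81 to 11.2 CPM in Dp1Tyb. Sox10 made up most of that sum, at 8.99 ± 4.04 CPM in WT and 5.63 ± 1.87 CPM in Dp1Tyb, and it is also 1 of the glial markers, so the sum does not measure melanocytes apart from glia. For Schwann cells and neural crest glia all 8 had a row, with 49.1 to 136 CPM in WT and 55.0 to 85.5 CPM in Dp1Tyb, and 6 of 7 tested genes had a negative relative log2 fold change with a median of -0.55. Ngfr, Erbb3 and Foxd3 of that list were at -0.68 (SE 0.32), -0.55 (SE 0.27) and -0.80 (SE 0.30), S100b was the member with the other sign at 0.41 (SE 0.20), and 0 of the 7 were called. The glial list thus had the same sign as Pmel, Mitf and Kit on the relative scale, and its part in those values was not tested.

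Dermal papilla markers, of the cell type that makes agouti in skin, had 0 of 8 tested genes called, 3 with a positive and 5 with a negative log2 fold change on both scales, and a median of -0.11 on the relative scale. Of that list 8 of 10 had a row, Corin and Sox18 had none, and the summed level was 350 to 435 CPM in WT and 279 to 396 CPM in Dp1Tyb. Crabp1 and Bmp4, the most abundant by RPKM, were at -0.41 (SE 0.33) and 0.13 (SE 0.18). Crabp1 was at 58.0 CPM in Dp1Tyb replicate 1 and between 133 and 225 CPM in the other 3 Dp1Tyb libraries, against 155 to 239 CPM in WT. Single members ranged from Sox2 at -1.10 (SE 0.43) to Prom1 at 0.19 (SE 0.20). Keratinocyte markers had a row for 6 of 10, led by Krt14 and Dsp with Krt5, Krt15, Krt1 and Dsg3 without one. They summed to 15.8 to 36.7 CPM in WT and 17.3 to 31.7 CPM in Dp1Tyb. Of the 4 tested, 0 were called, 3 were positive and 1 negative on both scales, with a relative median of 0.16. Among the 12 fibroblast markers 0 were called, 9 were positive and 3 negative on both scales, with a relative median of 0.12. Mast cell markers, which bear on Kit, had a row for 2 of 9, Hdc and Gata2, and summed to 2.10 to 5.19 CPM in WT and 1.85 to 3.51 CPM in Dp1Tyb. In each of these lists the ranges of the groups overlapped.

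The genes whose pattern over the 8 libraries was most like that of nonagouti were ranked by the gap, in log2(CPM + 0.5) on the spike-in scale, between the lowest Dp1Tyb and the highest WT library. The gap was 2.75 for nonagouti itself, and 0.285% of all genes tested had any gap in that direction. It was followed by Gm26937, a processed pseudogene at chr16:74961240-74962247, at 1.39, with 0, 0, 2 and 0 counts in WT and 61, 25, 30 and 40 in Dp1Tyb. Wrb (0.50), a receptor gene for the insertion of tail-anchored proteins, and Sod1 (0.43), the cytosolic superoxide dismutase gene, both lie in the duplicated interval and were at 1.90 and 1.67 times the WT level in Dp1Tyb on the relative scale. On that scale their gaps were only 0.07 and 0.04, and they ranked 120 and 179 among all genes, so their place here depends on the scale. Klhl4 (0.42), a kelch-like gene on the X chromosome, had 6, 6, 4 and 3 counts in WT and 26, 15, 13 and 15 in Dp1Tyb. Apol9b (0.39), of the apolipoprotein L family, overlapped between the groups on the relative scale. These genes were picked for their pattern, which is given with no test.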

How the data were processed

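Raw counts per gene of 4 WT and 4 Dp1Tyb MEF libraries were used as the authors deposited them. Per the labels the authors made stranded mRNA libraries, trimmed reads with Trim Galore, aligned them to GRCm38 with TopHat2 2.0.12 and counted with HTSeq. The strand option and annotation release are not given in the sources used here. The deposited normalised values and the authors' own comparison results, which hold fold changes and p-values, were not used. Identifiers were matched to GENCODE M21 (19318 of 19493 genes). Depth was 17698900 to 26471758 counts a library, which leaves genes under about 10 counts imprecise. Genes kept by filterByExpr (16470) were fitted with edgeR 4.0.16 (R 4.3.3, glmQLFit and glmQLFTest, two-sided, Benjamini-Hochberg) with ERCC median-of-ratios scaling as the main scale and TMM over endogenous genes as the relative scale. Alternatives were DESeq2 1.42.0 with either size factors, total ERCC scaling, other filters, a replicate block and leaving out each library. The members and lists were chosen with earlier results of these data known. Named genes were all members with a row and the 5 genes closest to nonagouti in pattern. In each list the 2 most abundant and the 2 of smallest p were named. Also named were the 2 most abundant markers, genes that overlap nonagouti or Pmel, the nearest tested gene on each side of nonagouti, and Xist. Gm14049, Gm16861 and Gm15531, which overlap Atrn, Mgrn1 and Mitf, were not described. Foxd3, S100b, Agrp, Pomc, Mrap, Prkar2a, Pcsk2, the receptors, Tfeb, Tfec, Sox2, Prom1 and Efcab8 were named after their values were seen.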

Additional observations from a re-analysis of the deposited data

Results flagged for a closer look

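Nonagouti in WT replicate 3 stood apart from the other WT libraries, at 0.379 CPM on the relative scale against 0.170 to 0.194 CPM, and the gap to its nearest neighbour took 0.883 of the range of the group of 4, above Dixon's 95% critical value. The same library was at 0.268 CPM on the spike-in scale, against 0.149 to 0.225 CPM, and did not stand apart by that measure. The values rest on 8 counts against 4, 4 and 4, and the 4 WT libraries as a whole differed by no more than counting error allows (chi-square per degree of freedom 0.934). This was 1 of 16 groups of 4 libraries looked at, and chance flags about 1 in 20. Without that library the log2 fold change of nonagouti was 5.28 on both scales.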

How the results depend on the processing

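No member other than nonagouti, no gene of the 6 pathway lists and no neighbour of nonagouti was called under any alternative run, and the cell type marker lists were fitted on the main and relative scales only. Nonagouti ranged from 4.82 to 5.31 on the log2 scale over all of them, and with a filter of at least 10 counts in every library nonagouti and Pmel dropped out, so this filter gave neither a value. Leaving out 1 library moved the small fold changes of the other members by over 1.5 times. On the spike-in scale Atrn was at 0.14 without Dp1Tyb replicate 1 and 0.64 without WT replicate 4, Tyr at 0.06 without WT replicate 3 and 0.58 without WT replicate 4, Hprt at 0.12 without WT replicate 3, Mitf at -0.016 without WT replicate 1, and Pmel at -0.33 without WT replicate 1. The sign turned for 2 members. Mgrn1 ranged from -0.019 to 0.29, negative without WT replicate 3, and Kit from -0.55 to 0.18 on the spike-in scale and down to -0.57 on the relative scale, positive without WT replicate 4, Dp1Tyb replicate 2 or Dp1Tyb replicate 3 on the spike-in scale only; the cause was not tested. Leaving out libraries on the relative scale was added after seeing the data. Over all genes, the count called was 2 on the spike-in scale, 3 on the relative scale and 0 with the filter of 10 counts. It was 54 with DESeq2's own size factors. With a library left out it was 2 to 8 on the spike-in scale and 1 on the relative scale. With so few genes called, 0 was the likely count among the members, lists or neighbours under any run. Such a count does not exclude smaller changes.

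Same-numbered libraries correlated at -0.03 to 0.61 in their deviations from the group means, over 0.1 in 3 of 4 pairs, and 6 of 8 libraries correlated best with their own number, a hint from the data and not from the design. The replicate block raised the count called over all genes from 2 to 9, with 0 members called, and put nonagouti at 5.08, Pmel at -0.57 and Kit at -0.12.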
